A study of Mus musculus with 16 samples.

Results

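The 39 genes described here carry fatty acids into skeletal muscle, store them in lipid droplets and oxidise them in mitochondria. They were picked out by gene symbol from a list of names, and all 39 were found among the 45706 genes of the deposited table. Quadriceps RNA was sequenced from mice that lack Nampt in skeletal muscle (labelled KO, 8 libraries) and from wild-type mice (labelled WT, 8 libraries). No treatment is named for either group, and the sources used here give neither the promoter that drives the deletion nor the animals' strain, sex or age. The labels do not say how many animals the libraries came from, so the p-values measure the spread between these libraries, which may in part be technical.

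Long-chain fatty acids reach a muscle fibre after lipoprotein lipase frees them from circulating triglyceride, and CD36 and the fatty acid transport proteins help them across the membrane. Inside the fibre they are bound by FABP3, joined to coenzyme A, and either stored under perilipins or passed to carnitine by CPT1 for entry into mitochondria. Each turn of beta-oxidation there hands electrons to a flavoprotein and to NAD, the cofactor whose salvage depends on the product of Nampt. PPAR alpha and PPAR delta are nuclear receptors that bind fatty acids, pair with retinoid X receptors and switch on many of these genes, above all in fasting and endurance exercise. The comparison of KO with WT therefore asks whether the transcripts of this NAD-using pathway differ where the gene of NAD salvage is deleted.

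The libraries held 16065394 to 51881258 estimated counts each. Levels are in CPM, counts scaled to library size and composition, and are given per kilobase where genes are compared. Nampt was lower in every KO library (60.4 to 88.7 CPM) than in every WT library (125.5 to 161.1 CPM), with a log2 fold change of -0.95 (standard error 0.07, edgeR adjusted p = 9.68e-07). Fibre genes dominated all libraries, with Myh4, the fast myosin heavy chain, at 70670 CPM (KO mean) and 74475 CPM (WT mean). Of 7 fibre markers 0 were called, and 4 had log2 fold changes above 0. Before adjustment 1 of the 7, Actn3, had a p under 0.05, beside 9.57% of all tested genes. Its log2 fold change was -0.19 (edgeR adjusted p = 0.296). Of 4 heart and liver markers, Nppa and Apoa1 were near 0, and Apoa1 averaged 0.071 CPM (KO) and 0.0832 CPM (WT). Myh6 had means of 3.80 CPM (KO) and 2.89 CPM (WT), and Alb of 1.11 and 0.645 CPM. Of the 4, only Myh6 and Alb were tested, with log2 fold changes of 0.37 and 0.80, and 0 of these 2 were called. The summed level of 9 adipocyte markers ran from 132.1 to 261 CPM over KO libraries and from 134.9 to 235.5 CPM over WT libraries. In whole-tissue RNA, fewer cells of a type and less RNA per cell cannot be told apart. Library WT 7 stood apart for the genes described here, and results that rest on it are given with and without it.

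None of the 39 fatty acid genes passed the test between KO and WT. All 39 passed the filter on low counts, and 0 passed the test at a Benjamini-Hochberg adjusted p under 0.05 (edgeR quasi-likelihood test), where 0.0435% of the 13792 tested genes did. DESeq2 and limma-voom also called 0 of them, where they called 1.76% and 0.0363% of all genes with an adjusted p. For 8 of the 39, DESeq2 left the adjusted p empty. At an unadjusted p under 0.05 there was 1 of 39, Ppard, which was lower in KO. Among all genes 9.57% had such a p, and 5.55% had one and were lower in KO. In 0 of 39 did the 8 KO and 8 WT libraries fall into ranges that did not overlap, which 0.123% of all genes did.

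Most of these genes were measured closely enough to bound the difference. The 95% interval of the fold change stayed within a 1.5-fold change, up or down, for 34 of 39 genes, and for 86.0% of all tested genes. The 5 genes with wider intervals were Angptl4, Ucp3, Acot1, Acot2 and Plin5, which also had the largest fold changes and the largest spread between libraries. The median log2 fold change was -0.03 over the 39 genes and 0.00 over all genes, with 28 of the 39 below 0. Without WT 7, 0 of 39 were called (0.0580% of all genes) and 1 had an unadjusted p under 0.05 (11.2% of all genes). The median without it was 0.04 with 14 genes below 0, and the interval lay inside a 1.5-fold change for 36 of 39, beside 84.9% of all genes. The sign of the median over the 39 genes thus turned with 1 library.

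**Figure D1:**
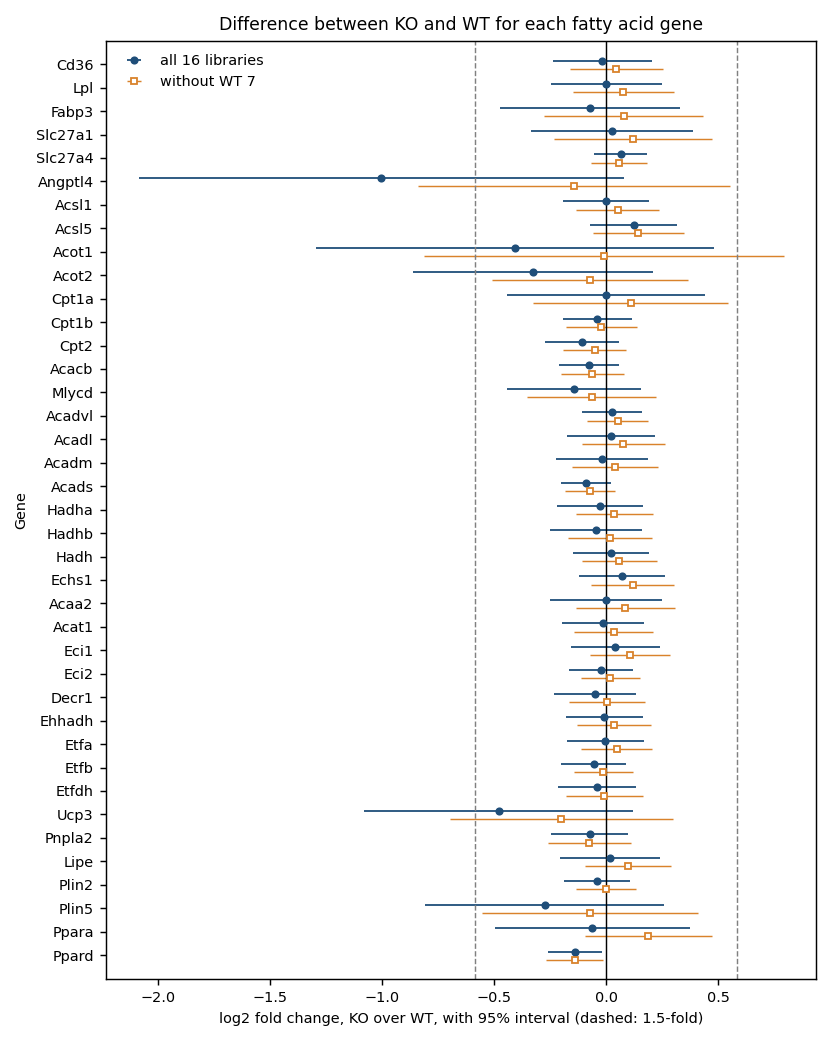
The log2 fold change of each gene in KO over WT (x axis) is drawn with its 95% interval, for all 16 libraries (filled circles) and without WT 7 (open squares), and dashed lines mark a 1.5-fold change. The widest intervals belong to Angptl4, Ucp3, Acot1, Acot2 and Plin5, and the points of these 5 move toward 0 without WT 7.

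Fabp3, the muscle fatty acid binding protein, was the most abundant per transcript length at 411 ± 110 CPM per kilobase over KO and 432 ± 148 over WT libraries (SD, n = 8 each). The oxidation enzymes Hadhb, Acadvl and Acadm followed at 131, 121 and 121 CPM per kilobase in WT, and these 3 differed from each other by less than their spread. Cpt1b, the muscle form of the carnitine transferase, had 93.6 CPM per kilobase in WT, where Cpt1a, the liver form, had 2.24. Acot1, at 0.369 CPM per kilobase in WT, was the lowest. The 17 most abundant genes stood in the same order in KO and WT.

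**Figure D2:**
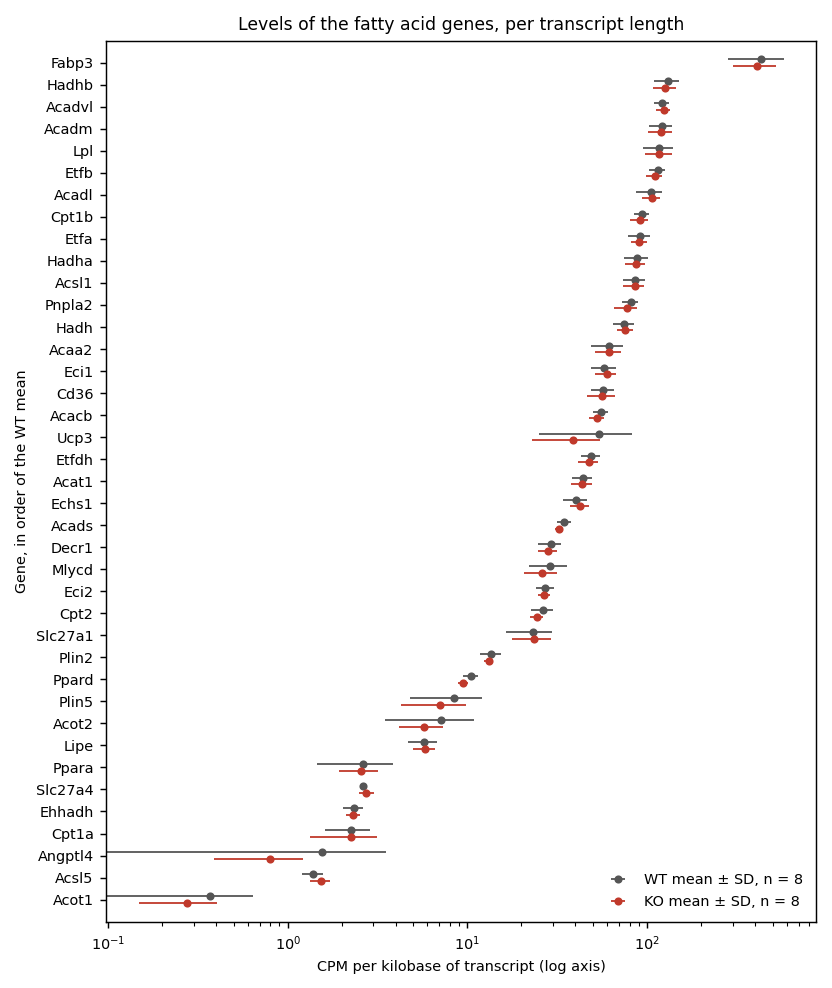
Mean levels (CPM per kilobase of the transcript with the longest coding sequence, log axis) are drawn with their SD for 8 WT (grey) and 8 KO (red) libraries, genes ordered by the WT mean; an SD that would reach 0 ends at the left edge. The SD bars of KO and WT overlap for every gene, from Fabp3 at over 400 CPM per kilobase to Acot1 at under 0.4.

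Of the 6 genes of fatty acid uptake 0 were called (0.0435% of all tested genes). All but Angptl4, 5 of the 6, had intervals inside a 1.5-fold change, beside 86.0% of all tested genes. Lpl, the lipase that frees fatty acids from lipoproteins, spanned 372.8 to 575.5 CPM over KO libraries (median 492) and 354.3 to 659.7 CPM over WT libraries (median 463). The ranges overlap almost wholly, and the log2 fold change was -0.00 (95% interval -0.25 to 0.25). Cd36, the membrane fatty acid receptor, averaged 191 ± 34.3 CPM over KO and 193 ± 28.1 over WT libraries, and Fabp3 had 338 ± 90.3 and 356 ± 122 (SD, n = 8 each). The transporters Slc27a1 and Slc27a4 had log2 fold changes of 0.03 and 0.07. Cd36 and Lpl are also made by adipocytes, and Cd36 by capillary endothelium. Of these cell types, 0 of 9 adipocyte and 0 of 9 endothelial markers were called. Before adjustment 3 of the endothelial and 0 of the adipocyte markers had a p under 0.05, beside 9.57% of all tested genes. The 3 were Cdh5, Emcn and Tie1, with log2 fold changes of 0.18, 0.19 and 0.13. Of the 9 endothelial markers, 8 had log2 fold changes above 0. The endothelial markers summed to 284 to 332 CPM over KO libraries and 250.7 to 296 CPM over WT libraries. The part of endothelium in the values of Cd36, and of adipocytes in those of Cd36 and Lpl, was not tested.

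Angptl4, a secreted inhibitor of lipoprotein lipase and a target of the PPARs, had the largest fold change of the 39. It spanned 0.985 to 4.61 CPM over KO libraries (median 2.68) and 1.40 to 21.0 CPM over WT libraries (median 3.67). A single library, WT 7, had 21.0 CPM, and the other 7 WT libraries lay at or below 4.13 CPM, inside the KO range. The fitted ratio of KO to WT was 0.499 (95% interval 0.235 to 1.06), with an SE of 0.52 on the log2 scale (edgeR adjusted p = 0.561). Without WT 7 the log2 fold change was -0.14 ± 0.33 (SE, edgeR adjusted p = 0.924). Angptl4 (ENSMUSG00000002289) is at chr17:33773750-33781830 on the minus strand of GRCm38.

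The acyl-CoA synthetases Acsl1 and Acsl5, which join fatty acids to coenzyme A, gave log2 fold changes of 0.00 and 0.12. Acsl1 spanned 261.8 to 389.9 CPM over KO libraries (median 339.7) and 271.6 to 412.2 CPM over WT libraries (median 339.7). The thioesterases Acot1 (cytosolic) and Acot2 (mitochondrial) undo that step. Acot2 spanned 8.01 to 18.7 CPM over KO libraries (median 13.1) and 8.20 to 32.7 CPM over WT libraries (median 13.7). Its log2 fold change was -0.33 ± 0.25 (SE, edgeR adjusted p = 0.738), and -0.07 without WT 7. Acot1 was low, at 0.293 to 1.21 CPM over KO libraries (median 0.683) and 0.0857 to 2.09 CPM over WT libraries (median 0.655). For Acot1 the log2 fold change was -0.41 ± 0.42 (SE, edgeR adjusted p = 0.81), and -0.01 without WT 7. In both genes WT 7 was the highest library and the ranges of KO and WT overlap.

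Acot1 and Acot2 are neighbours 15616 bases apart on the plus strand of chromosome 12, and their coding sequences were 95.6% identical over aligned bases. Of the 52-base stretches in Acot2 transcripts, the length of a read here, 519 also occur in Acot1, so the split of reads between them is uncertain, above all for Acot1 with 338 counts over all 16 libraries against 6479 for Acot2. Their upstream sequences were far less alike, at 59.0% identity over aligned bases. They are shown, from RefSeq windows on GRCm38.p6 and trimmed to bases outside any annotated exon, because both genes were highest in WT 7. Acot1 was 0.048 ± 0.010 times Acot2 over KO and 0.048 ± 0.018 times over WT libraries (SD, n = 8 each). How many of the Acot1 counts are reads of Acot2 was not tested, so the peak in WT 7 is not counted as 2 separate results. Acot1 is read at chr12:84009252-84009489 and Acot2 at chr12:83987611-83987860, both on the plus strand. Capitals would mark the letters AGGTCA, the half-site of PPAR and related receptors, on either strand, and neither window holds them.
Acot1: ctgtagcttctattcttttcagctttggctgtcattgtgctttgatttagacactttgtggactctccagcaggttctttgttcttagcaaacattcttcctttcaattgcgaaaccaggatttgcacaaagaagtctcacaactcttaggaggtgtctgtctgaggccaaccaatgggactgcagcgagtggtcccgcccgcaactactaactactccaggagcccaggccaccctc
Acot2: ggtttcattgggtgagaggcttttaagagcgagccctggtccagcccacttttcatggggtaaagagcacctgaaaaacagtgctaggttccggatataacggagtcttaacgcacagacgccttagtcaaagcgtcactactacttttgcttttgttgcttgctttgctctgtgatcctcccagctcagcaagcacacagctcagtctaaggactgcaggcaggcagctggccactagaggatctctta

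Entry of fatty acids into mitochondria is set by CPT1 and by malonyl-CoA, which blocks it. Acacb, the carboxylase that makes malonyl-CoA at the mitochondrion, spanned 397.1 to 524.3 CPM over KO libraries (median 466) and 424.7 to 549.2 CPM over WT libraries (median 473). Its log2 fold change was -0.08 (95% interval -0.21 to 0.06). Mlycd, which breaks malonyl-CoA down, averaged 55.6 ± 11.3 CPM over KO and 61.4 ± 14.7 over WT libraries (SD, n = 8 each). Cpt1b and Cpt2, the outer and inner carnitine transferases, had log2 fold changes of -0.04 and -0.11, with intervals from -0.19 to 0.11 and from -0.27 to 0.06. Cpt1a had equal means of 9.67 CPM in KO and WT, with KO 4 highest at 17.2 CPM, and its interval ran from -0.44 to 0.44. All 5 genes of this step had intervals inside a 1.5-fold change (86.0% of all tested genes), and 0 of 5 were called (0.0435%).

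None of the 14 enzymes of beta-oxidation was called. Their log2 fold changes lay between -0.09 (Acads, the short-chain dehydrogenase) and 0.07 (Echs1, the short-chain hydratase), with a median of -0.01. The intervals of 14 of 14 lay inside a 1.5-fold change, beside 86.0% of all tested genes. Hadha, the subunit of the trifunctional protein that carries the hydratase and NAD-dependent dehydrogenase, spanned 286.7 to 410 CPM over KO libraries (median 338) and 292.1 to 458 CPM over WT libraries (median 343). Hadhb, the thiolase subunit of the same complex, ran from 218.8 to 313.7 CPM in KO and from 220.9 to 345.5 CPM in WT. The NAD-dependent dehydrogenase of short chains, Hadh, averaged 135 ± 14.2 CPM over KO and 134 ± 17.7 over WT libraries (SD, n = 8 each; 95% interval of the log2 fold change -0.15 to 0.19). The acyl-CoA dehydrogenases of very long, long and medium chains, Acadvl, Acadl and Acadm, had log2 fold changes of 0.03, 0.02 and -0.02. Ehhadh, the peroxisomal bifunctional enzyme, was low, with means of 6.92 CPM (KO) and 6.98 CPM (WT).

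Hadha and Hadhb stand head to head on chromosome 5, with 85 bases between the annotated genes and 272 between their RefSeq starts. Their levels kept close to a fixed ratio. Hadhb was between 0.714 and 0.782 times Hadha across the 8 KO libraries and between 0.731 and 0.777 times across the 8 WT libraries, while Hadha itself ranged as given above. Decr1, on chromosome 4, moved much as Hadha did. Its log2 deviation from its own mean was 0.37 in WT 7 and -0.23 in KO 8, where Hadha had 0.40 and -0.28. The part of the shared stretch in the Hadhb to Hadha ratio was not tested. The stretch that both genes share as upstream sequence is shown because they stand head to head. It is read at chr5:30155163-30155247 on the plus strand of GRCm38.p6, from RefSeq windows. Hadha runs leftward and Hadhb rightward from it. Capitals mark GGGCGG, a GC box, searched on both strands, which occurs 2 times in these 85 bases. It is found in 32.7% of all RefSeq upstream windows of 250 bases, a longer stretch, so the figures are not like for like.
Hadha and Hadhb: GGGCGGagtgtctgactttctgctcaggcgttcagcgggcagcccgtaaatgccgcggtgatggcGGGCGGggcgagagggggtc

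**Figure D3:**
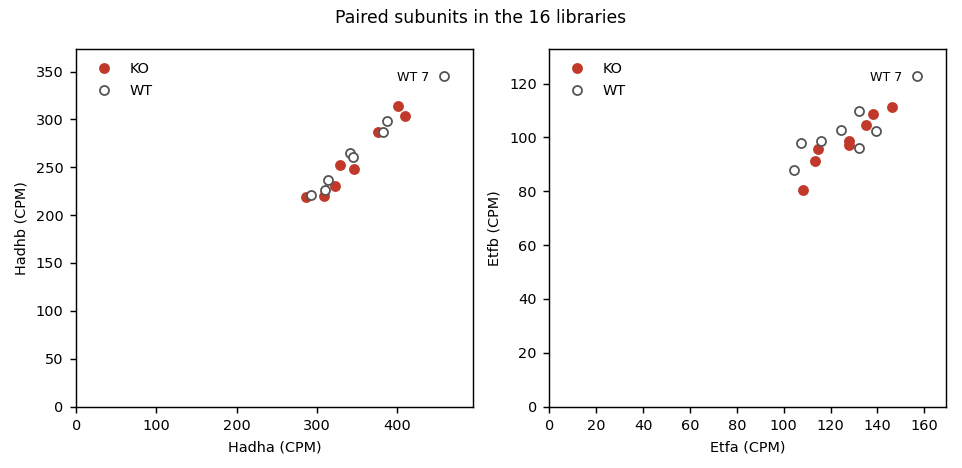
Each point is 1 library (KO filled, WT open), with Hadhb against Hadha on the left and Etfb against Etfa on the right, all in CPM. The Hadha and Hadhb points fall near a line through 0 with WT 7 at the upper end, while the Etfb to Etfa ratio ran from 0.728 to 0.914.

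Electrons from the acyl-CoA dehydrogenases pass to the electron transfer flavoprotein (Etfa, Etfb) and its dehydrogenase (Etfdh). Etfa, the most abundant of the 3 by CPM, spanned 108.3 to 146.4 CPM over KO libraries (median 128) and 104.6 to 156.9 CPM over WT libraries (median 128). The log2 fold changes of Etfa, Etfb and Etfdh were -0.00, -0.06 and -0.04, each with an interval inside a 1.5-fold change.

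Ucp3, a mitochondrial carrier of muscle that follows fatty acid supply, had the next largest fold change after Angptl4. It spanned 42.0 to 153 CPM over KO libraries (median 91.6) and 75.0 to 294 CPM over WT libraries (median 108). WT 7 had 294 CPM and the next highest WT library had 163 CPM, while KO 8 was the lowest of all 16 libraries. The log2 fold change was -0.48 ± 0.29 (SE, edgeR adjusted p = 0.633), and -0.20 ± 0.24 without WT 7 (adjusted p = 0.816). Over all alternative fits it ran from -0.61 to -0.07. Ucp3 (ENSMUSG00000032942) is at chr7:100472990-100486432 on the plus strand. The sequence upstream of it is shown because Ucp3 is a widely varying gene whose window holds the receptor half-site AGGTCA, in capitals, 2 times, 149 and 44 bases before the RefSeq start. It is read at chr7:100472741-100472989 on the plus strand of GRCm38.p6. AGGTCA stands in 14.0% of all RefSeq windows of 250 upstream bases, and a match of letters shows no binding. The windows of Acot1 and Acot2, which also varied widely, hold none.
Ucp3: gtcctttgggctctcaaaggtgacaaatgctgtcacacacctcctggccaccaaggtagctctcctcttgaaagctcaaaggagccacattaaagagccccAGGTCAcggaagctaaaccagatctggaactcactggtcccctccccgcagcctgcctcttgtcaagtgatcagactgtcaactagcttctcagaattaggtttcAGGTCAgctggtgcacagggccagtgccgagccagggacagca

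Droplet storage and lipolysis gave 0 of 4 called genes (0.0435% of all tested genes). Pnpla2, the first triglyceride lipase of the droplet, spanned 172.4 to 255.5 CPM over KO libraries (median 189.7) and 183.2 to 241.7 CPM over WT libraries (median 212). Its log2 fold change was -0.07 (95% interval -0.25 to 0.10). Lipe, the hormone-sensitive lipase, and Plin2, a general droplet coat protein, had log2 fold changes of 0.02 and -0.04. Plin5, the perilipin that tethers droplets to mitochondria, spanned 8.01 to 22.9 CPM over KO libraries (median 12.7) and 9.26 to 31.4 CPM over WT libraries (median 14.1). WT 7 and WT 8 were the 2 highest libraries at 31.4 and 24.3 CPM, followed by KO 7 and KO 2. The log2 fold change of Plin5 was -0.27 ± 0.25 (SE, edgeR adjusted p = 0.783), and -0.07 without WT 7.

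Plin5 has 2 RefSeq windows. The one shown holds AGGTCA 1 time, in capitals, 170 bases before its RefSeq start, and the other holds it 0 times. It is read at chr17:56117597-56117798 on the minus strand of GRCm38.p6. RefSeq windows matched 33 of the 39 genes, and the half-site alone, AGGTCA, searched on both strands of the 250 upstream bases, was found for 8 of the 33 (Acadm, Acadvl, Cd36, Cpt1a, Echs1, Plin2, Plin5 and Ucp3). By window that was 8 of 38, where 14.0% of all RefSeq windows hold it. The element that PPAR and RXR bind as a pair is 2 copies of AGGTCA in 1 direction with any base between them. It was found for 0 of 33, as was a looser form with any base at the fourth position of each copy, and these stand in 0.0335% and 0.338% of all windows. A match of letters describes the window and shows no binding, and Angptl4 was not among the 33.
Plin5: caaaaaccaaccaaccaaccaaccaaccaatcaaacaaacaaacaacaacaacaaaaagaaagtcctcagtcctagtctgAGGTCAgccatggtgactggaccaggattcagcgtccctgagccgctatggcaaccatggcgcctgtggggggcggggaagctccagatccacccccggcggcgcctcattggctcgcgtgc

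Ppard, which encodes PPAR delta, the main PPAR of muscle fibres, was the 1 member with an unadjusted p under 0.05. It spanned 28.1 to 33.5 CPM over KO libraries (median 30.7) and 29.9 to 38.7 CPM over WT libraries (median 33.8). The 3 highest libraries were WT 8, WT 4 and WT 5, and the groups overlap from 29.9 to 33.5 CPM. The log2 fold change was -0.14 ± 0.06 (SE, 95% interval -0.26 to -0.02, edgeR adjusted p = 0.433), and over the alternative fits it stayed between -0.19 and -0.11 with adjusted p between 0.217 and 0.632. Ppard (ENSMUSG00000002250) is at chr17:28232700-28301474 on the plus strand. Ppara, PPAR alpha, had medians of 8.33 CPM (KO) and 7.82 CPM (WT). WT 7 was its highest library at 18.8 CPM, and the log2 fold change of Ppara was -0.06, or 0.19 without WT 7.

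**Figure D4:**
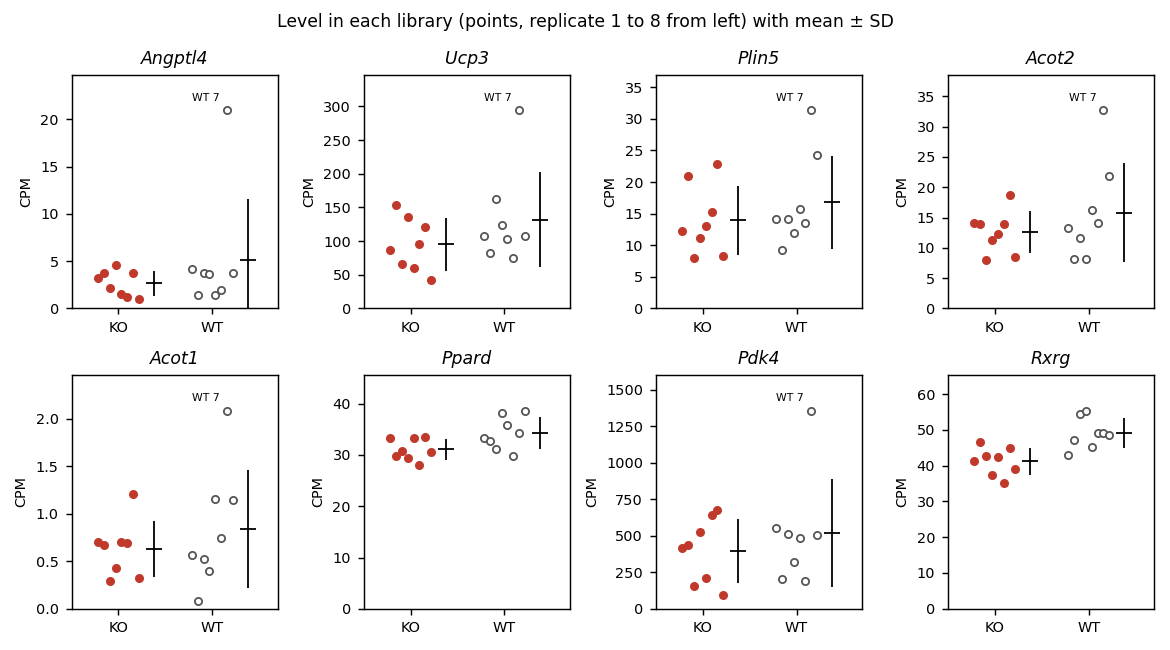
Each point is the CPM of 1 library, with the mean and SD of 8 libraries beside each group, for the 5 most variable members, Ppard, and the related genes Pdk4 and Rxrg; an SD that would reach below 0 ends at the axis. WT 7 is the highest point for Angptl4, Ucp3, Plin5, Acot2, Acot1 and Pdk4, and is inside the WT range for Ppard and Rxrg.

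A wider list of 98 related genes, by role, was read from the same fit. Of these, 95 were tested and 0 were called, with 9 at an unadjusted p under 0.05, 3 higher and 6 lower. That is close to the 9.57% of all tested genes with such a p, so the count does not set the list apart, and the genes are given as values. None of the 9 belonged to lipoprotein lipolysis and uptake, the carnitine shuttle, peroxisomal oxidation, other thioesterases or ketone use. The group of regulators and PPAR targets, singled out after its values were seen, gave 5 of its 14. Rxrg and Rxra, retinoid X receptors that pair with the PPARs, were among them. Rxrg spanned 35.2 to 46.6 CPM over KO libraries (median 41.8) and 43.0 to 55.4 CPM over WT libraries (median 48.9). Its log2 fold change was -0.25 ± 0.06 (SE, edgeR adjusted p = 0.166). DESeq2 called it (adjusted p = 0.0117), the single gene of this list it called, and the adjusted p over all alternatives ran from 0.0117 to 0.406. Rxra ran from 185.5 to 228.3 CPM in KO and from 210.1 to 243.2 CPM in WT, with a log2 fold change of -0.16 ± 0.05 (SE, edgeR adjusted p = 0.292). The third receptor of the family, Rxrb, was looked at afterwards and gave -0.10 on the log2 scale (edgeR adjusted p = 0.526).

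The other regulators at that unadjusted level were Esrra, the oestrogen-related receptor of mitochondrial genes, and Prkaa2, the muscle catalytic subunit of AMP-activated kinase, at -0.13 and -0.10 on the log2 scale, and Ppargc1b, a coactivator, at 0.19. Among enzymes, Agpat1 of glycerolipid synthesis had -0.12, Echdc2, a hydratase-like protein, -0.17, Acsf3, a malonyl-CoA synthetase, 0.11 and Acaca, the cytosolic acetyl-CoA carboxylase, 0.30. The adjusted p of these 7 genes lay between 0.28 and 0.518. Pdk4, the kinase that turns pyruvate use off when fat is burnt, had the widest spread of the list. It spanned 92.9 to 679.3 CPM over KO libraries (median 424) and 187.6 to 1358 CPM over WT libraries (median 497), with WT 7 at 1358 CPM and KO 8 at 92.9 CPM. Its log2 fold change was -0.39 ± 0.42 (SE, edgeR adjusted p = 0.821), and -0.01 without WT 7.

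Many of the 39 genes were high or low in the same libraries, within both genotypes. WT 7 was the highest of the 16 libraries for 28 of 39 genes (71.8%), and for 9.3% of all tested genes. By role it was highest for 11 of 14 beta-oxidation enzymes and for all of Etfa, Etfb, Etfdh and Ucp3. The lowest library was KO 8 for 11 genes (28.2%), WT 4 for 10 (25.6%), KO 3 for 7 (17.9%) and WT 3 for 4 (10.3%). Over all tested genes KO 8 was lowest for 4.07%, WT 4 for 8.16%, KO 3 for 4.79% and WT 3 for 6.61%. Libraries of both genotypes were thus at the low end, with WT 3 nearest to its share over all genes. The median deviation of the 39 genes from their own means was 0.37 on the log2 scale in WT 7, 0.17 in KO 7 and 0.16 in KO 6, against -0.28 in KO 8, -0.24 in WT 4 and -0.22 in KO 3. Over all tested genes that median was between -0.00 and 0.01 in each library. In the wider list WT 7 was highest for 23 of 95 genes (24.2%), among them Slc25a20 and Slc22a5 of the carnitine system, Plin3, Plin4, Ppargc1a and Pdk4.

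**Figure D5:**
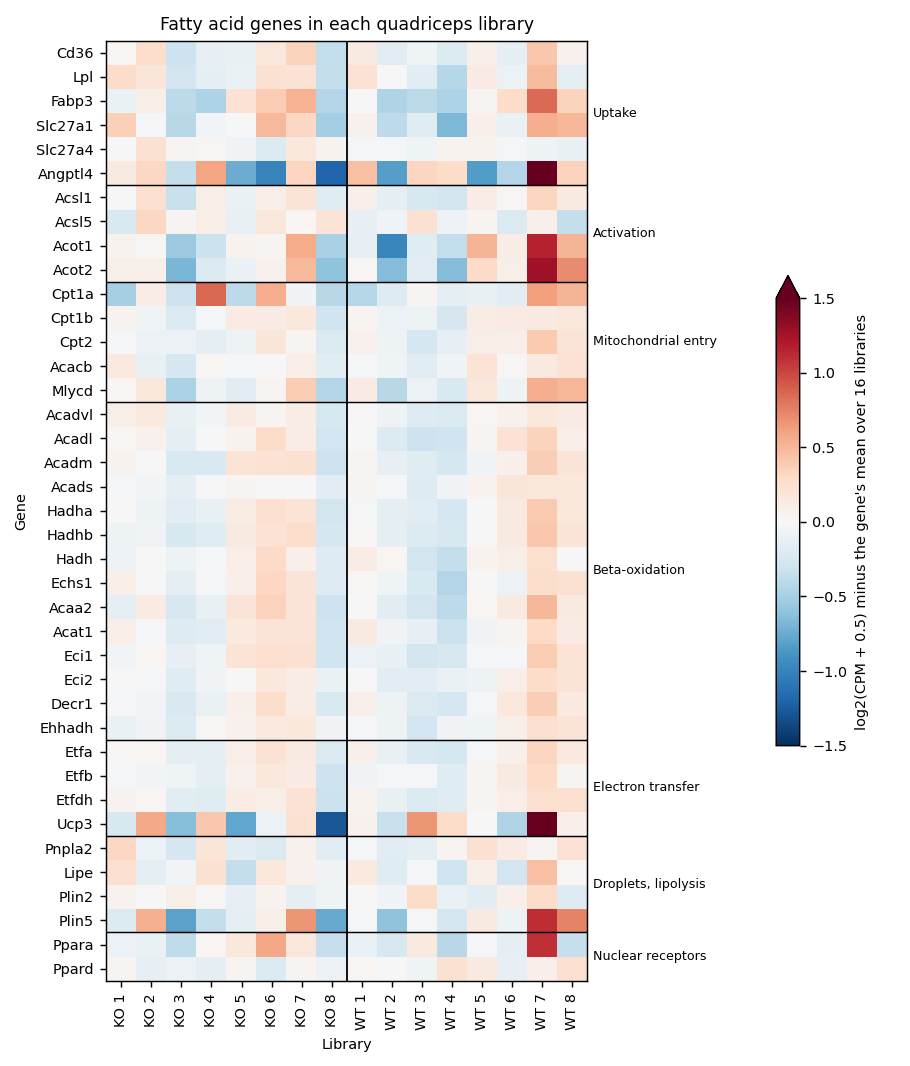
Each cell is the log2(CPM + 0.5) of 1 gene in 1 library minus the mean of that gene over 16 libraries, with genes grouped by role and KO libraries left of the line; colours end at 1.5. The column of WT 7 is red for most genes and darkest for Angptl4, Ucp3, Acot1, Acot2, Plin5 and Ppara, and the columns of KO 3, KO 8 and WT 4 are blue in both genotypes.

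The size of this swing differed by gene. The SD within genotypes of log2(CPM + 0.5) was 0.92 for Angptl4, 0.63 for Ucp3, 0.54 for Plin5 and Acot2, and 0.53 for Acot1, and each of these was larger than in at least 97.8% of tested genes. The median over the 39 genes was 0.20 and over all tested genes 0.15.

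Marker sums in WT 7 lay within the range of the other libraries. Its endothelial sum of 296 CPM was the highest among WT libraries and below the KO maximum of 332 CPM, and its macrophage sum was 89.1 CPM, near the low end of both genotypes. Its adipocyte marker sum was 219.6 CPM, inside the WT range of 134.9 to 235.5 CPM. Its sum of 8 slow and oxidative fibre markers was 3976 CPM, within a WT range of 1857 to 4107 CPM and below the KO maximum of 5094 CPM in KO 6. WT 4, low for many members, had the lowest slow fibre sum, and all 8 of these markers had log2 fold changes above 0 with 0 called. RNA that carries no poly(A) tail summed to between 505.8 and 749 CPM in KO 1, KO 3, KO 5 and KO 8, and to between 233 and 467 CPM in the other 12 libraries. By the median deviation of the 39 genes KO 3 and KO 8 were low (-0.22 and -0.28), and KO 1 and KO 5 were not (0.02 and 0.04). For Ucp3, however, KO 1, KO 3, KO 5 and KO 8 were the lowest KO libraries, at 87.0, 65.6, 59.8 and 42.0 CPM. The same held for Pdk4, at 412.9, 158.6, 208.6 and 92.9 CPM. Without those 4 libraries 0 of 39 genes were called, 1 had an unadjusted p under 0.05 (8.77% of all genes there), and the median log2 fold change was 0.05. The part of fibre type and of this RNA in the swing between libraries was not tested.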

How the data were processed

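Polyadenylated RNA of quadriceps was sequenced in 16 libraries as paired reads of 52 bases, per the labels' protocols. The submitters' processing notes name bcl2fastq 4.0.3, STAR, Salmon and the GRCm38 build. For STAR and Salmon no version, annotation or strand option is stated there. What the authors deposited is an estimated count per gene, which Salmon makes and which was not scaled to depth. Rounding to whole numbers here altered 11.1% of the entries.

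KO and WT were compared on the whole table with edgeR 4.0.16 (quasi-likelihood test, TMM scaling, default low-count filter, R 4.3.3), with Benjamini-Hochberg adjustment over 13792 tested genes. Standard errors come from the fitted weights and the quasi-dispersion. CPM use TMM-scaled library sizes, and log2 values add 0.5 CPM. Lengths, positions and shared 52-base stretches (either strand) are from GENCODE vM21 (GRCm38) and promoters from RefSeq GRCm38.p6. The reads of some genes can be shared with an overlapping gene or a near copy. Such stretches made up 78.5% of Cpt1b, 44.3% of Etfb, 36.4% of Fabp3, 26.3% of Acadvl and 19.4% of Hadhb. These are shares of sequence, and the uncertainty they bring to the levels was not measured. Over all libraries Fabp3-ps1 had 5339 counts against 156054 for Fabp3, Dvl2 2485 against 117884 for Acadvl, and Gm13910 3426 against 118063 for Hadhb. The main sharing genes of Cpt1b (Gm44502) and Etfb (Gm45233) have no entry of that name in the deposited table.

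The members, the wider list and the tests were chosen with earlier results of these data known. Values are given in full for members with p under 0.05, the 5 with the largest fold change, the 5 with the largest spread, and the most abundant of each role. In the wider list they are given for genes with p under 0.05 and for the gene with the largest spread. Tested on simulated data with the levels and spread of these libraries (KO against WT, 13676 genes), the test recovered 56% of genes changed 1.25-fold, 88% at 1.5-fold, 96% at 2-fold and 100% at 3-fold. At each of these folds 50 genes were changed. Of the test's 185 calls 8.11% were unchanged genes, and 95.1% of intervals held the true value. Each simulated gene was drawn on its own, without the swing between libraries that genes share here. The real comparison called 6 genes, so its adjusted p is harder to pass and its recovery may be lower. Alternatives were DESeq2 1.42.0, limma-voom (limma 3.58.1), other scalings, no filter, covariates, a replicate block and libraries left out.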

Additional observations from a re-analysis of the deposited data

Results flagged for a closer look

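In 78 groups of 8 libraries (39 genes in KO and in WT), 4 held a library far from the rest, by Dixon's ratio of the gap to the range. For normal, independent values chance gives about 1 in 20 groups, which is about as many as were found. The genes here move together in WT 7, so that rate is approximate, and the count cannot say whether the flags arose by chance. Of the 4 flagged libraries, 3 were WT 7, at 21.0 CPM for Angptl4 (the next WT library had 4.13 CPM), 294 CPM for Ucp3 (next 163 CPM) and 18.8 CPM for Ppara (next 9.52 CPM). The other was KO 7 for Acot1, at 1.21 CPM with the next KO library at 0.705 CPM, for a gene with 338 counts over 16 libraries. The ratio was 0.860 for Angptl4, 0.739 for Ppara, 0.601 for Ucp3 and 0.550 for Acot1, where the threshold was 0.526.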

How the results depend on the processing

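No fatty acid gene of the 39 was called in any of the 25 alternative fits, and the median log2 fold change over them ran from -0.06 to 0.05. The count of called genes among all genes was 6 in the fit reported, 97 with DESeq2 (13 higher), 5 with limma-voom, 2 with RLE scaling, 7 with upper-quartile scaling, 3 without the low-count filter, 4 with a RIN covariate, 3 with a covariate of RNA with no poly(A) tail, 2 without KO 1, KO 3, KO 5 and KO 8, and from 2 to 8 with 1 library left out. In the wider list DESeq2 called 1 gene and the other fits 0. Of the 39 genes, 24 changed the sign of their log2 fold change in at least 1 alternative. In 5 of these the reported value rounds to 0 at 2 decimals, and over all alternatives they ran from -0.05 to 0.11 for Lpl, -0.035 to 0.15 for Acsl1, -0.17 to 0.36 for Cpt1a, -0.05 to 0.12 for Acaa2 and -0.04 to 0.05 for Etfa. The values of the other 19 and of Pdk4 follow. With limma-voom Ehhadh had 0.016. With the RIN covariate Acadm had 0.0078 and Ehhadh 0.0195. With the covariate of RNA with no poly(A) tail the values were 0.085 for Cd36, 0.14 for Ppara, 0.0099 for Plin2, 0.0079 for Ehhadh and 0.024 for Pdk4. Without KO 1, KO 3, KO 5 and KO 8 they were 0.15 for Cd36, 0.084 for Fabp3, 0.023 for Cpt1b, 0.041 for Acadm, 0.049 for Hadha, 0.041 for Hadhb, 0.039 for Acat1, 0.015 for Etfdh, 0.035 for Eci2, 0.031 for Decr1, 0.041 for Mlycd, 0.11 for Ppara, 0.057 for Plin5, 0.070 for Ehhadh and 0.14 for Pdk4. With 1 library left out in turn, log2 fold changes ran from -0.018 to 0.077 for Acadl, -0.053 to 0.039 for Acadm, -0.054 to 0.034 for Acat1, -0.071 to 0.046 for Cd36, -0.095 to 0.0055 for Decr1, -0.049 to 0.018 for Eci2, -0.053 to 0.035 for Ehhadh, -0.16 to 0.078 for Fabp3, -0.022 to 0.059 for Hadh, -0.062 to 0.037 for Hadha, -0.089 to 0.017 for Hadhb, -0.022 to 0.098 for Lipe, -0.17 to 0.19 for Ppara and -0.051 to 0.12 for Slc27a1. The cause of these turns was not tested. KO and WT share replicate numbers, but same-numbered libraries correlated over 0.1 in only 3 of 8 pairs and 2 of 16 libraries correlated best with their own number, so the numbers were not taken as pairs. With a replicate block 0 of the 39 genes, 0 of the wider list and 2 of all genes were called, with a median of -0.03 over the 39. Depth limits Acot1 most, at 338 counts over 16 libraries.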

Other observations

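Genes of fatty acid synthesis were the least closely bounded role of the wider list, with 2 of 8 intervals inside a 1.5-fold change (86.0% of all tested genes). Fasn, fatty acid synthase, ran from 26.8 to 157.8 CPM in KO and from 27.2 to 126.5 CPM in WT, and its log2 fold change was 0.34 with an interval from -0.41 to 1.10 (edgeR adjusted p = 0.814). Acly, the ATP citrate lyase, had 0.29 and Scd1, the stearoyl-CoA desaturase, 0.11, with adjusted p of 0.67 and 0.941. WT 7 was the highest library for 0 of these 8 genes and the lowest for Scd2, another desaturase, and Srebf1, a regulator of lipid synthesis. Fasn was lowest in KO 7 and WT 8, where the adipocyte marker sums were 145.6 and 134.9 CPM. It was highest in KO 8, with a sum of 250.9 CPM, while WT 7 had 53.2 CPM of Fasn at a sum of 219.6 CPM. The part of adipocytes in the values of these genes was not tested.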
